A study of Mus musculus with 6 samples.

Results

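Immediate early transcription factor genes were followed as a group of 10: *Fos*, *Fosb*, *Jun*, *Junb*, *Jund*, *Egr1*, *Ier2*, *Atf3*, *Nr4a1* and *Btg2*. The members were chosen by name out of 56923 genes in the count table, and all 10 were among the 17212 genes that passed the filter on low counts. The RNA came from the left ventricles (LVs) of 3 WT and 3 *Lztr1* R409C/+ animals aged 12 weeks, each sequenced as 1 library, and the question was which transcripts differ between these genotypes. The *Lztr1* R409C/+ mice, labelled as mutant, carried a heterozygous knock-in of a single amino acid change made with CRISPR/Cas9 and were backcrossed to C57BL/6J. LZTR1 is an adaptor that brings RAS proteins to ubiquitin-dependent degradation. The labels call the tissue heart, where the study's methods call it LV and name male mice as those used to assess phenotypes. The sources used here do not tie the 6 libraries to litters, so p-values measure the spread between these mice.

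Immediate early genes are transcribed within minutes of a stimulus without new protein synthesis. ERK, the last kinase of the RAS/MAPK cascade, acts on ternary complex factors at the serum response element, a CArG box bound by SRF, and on kinases that phosphorylate CREB at cAMP response elements. FOS and JUN proteins pair to form the AP-1 factor, EGR1 is a zinc finger factor, ATF3 a stress-responsive bZIP factor, and NR4A1 an orphan nuclear receptor. IER2 is a small nuclear protein and BTG2 an antiproliferative co-regulator, so neither is a classical DNA-binding factor. In the heart, these genes are known to respond to mechanical load, adrenergic stimulation, stress and tissue handling.

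The promoters are shown because the members are classically controlled by shared elements. The 400 bases before the start of each canonical transcript were searched on both strands of GRCm39 with GENCODE starts. *Fos* and *Fosb* were the 2 members with a CArG box, which 2.21% of 21770 promoters held. For the other 8 members this says only that the strict CArG pattern is not in this window. In both, 7 bases separated the CArG box from a TGACG core read on the other strand as CGTCA. The CArG box and the core are in capitals in these 50-base stretches, which lie 320 to 271 bases before the *Fos* start at chr12:85520338-85520387 on the plus strand and 283 to 234 bases before the *Fosb* start at chr7:19044210-19044259 on the minus strand.
Fos: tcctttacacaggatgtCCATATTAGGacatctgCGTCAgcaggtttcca
Fosb: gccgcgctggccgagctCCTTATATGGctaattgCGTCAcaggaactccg

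The full cAMP response element, TGACGTCA, was in 3 members, *Jund*, *Ier2* and *Btg2*, and in 1.87% of all promoters. It is in capitals in the stretches that lie 218 to 169 bases before the *Btg2* start (chr1:134007027-134007076, minus strand), 60 to 11 bases before the *Ier2* start (chr8:85389494-85389543, minus strand) and 231 to 182 bases before the *Jund* start (chr8:71151368-71151417, plus strand).
Btg2: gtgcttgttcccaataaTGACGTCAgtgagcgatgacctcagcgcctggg
Ier2: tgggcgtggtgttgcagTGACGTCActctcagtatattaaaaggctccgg
Jund: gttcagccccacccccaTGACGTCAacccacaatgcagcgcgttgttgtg

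The TGACG core alone, which also lies within the full element, was in 9 members, all but *Atf3*, and in 23.1% of all promoters. The EGR motif GCGNGGGCG was in 3 members (*Fosb*, *Jund* and *Btg2*) against 5.12% of promoters, and TATAAA in 3 (*Fos*, *Junb* and *Nr4a1*) against 19.2%. The AP-1 motif, TGACTCA or TGAGTCA, was in 0 members and in 6.18% of promoters, which says only that these letters are not in this window. These matches are descriptions of sequence and not of binding.

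Deposited counts summed to between 66130887 and 72641124 per library. The mitochondrially encoded genes took 13.8% of counts in WT 3 and 45.4% in mutant 1, the ends of the range, against 29.7% to 37.3% in the other 4 libraries, and CPM (counts scaled to a common library size) were therefore scaled by TMM. *Lztr1* itself measured 24.2, 24.2 and 22.2 CPM in WT 1, 2 and 3 and 23.9, 27.9 and 25.35 CPM in mutant 1, 2 and 3, and since the knock-in changes single bases its level does not check the labels. The cardiomyocyte markers (8 genes, including *Myh6* and *Ttn*) summed to 35940 to 40350 CPM in WT and 24950 to 40070 CPM in mutant LVs, the lowest sum being in mutant 1. Without *Myh6* and *Actc1*, the lowest sum was in mutant 2, at 11450 CPM against 11780 CPM in mutant 1. *Ryr2* was the marker of this list that was lower in every mutant than in every WT mouse (log2 fold change -0.33, adjusted p = 0.654, edgeR). That is 1 of 8 markers, against 7.23% of all genes tested. Of the 8 markers, 3 had a higher and 5 a lower fitted level in mutant LVs, with adjusted p of 0.648 or more by edgeR.

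Of the 10 members, 9 had a higher and 1, *Jund*, a lower fitted level in mutant LVs, but none changed at an adjusted p under 0.05. In the quasi-likelihood fit of edgeR, with p-values adjusted by the Benjamini-Hochberg method over all 17212 genes, 0 members passed, with adjusted p from 0.274 to 0.979, and 7 genes in all passed (0.0407%). At an unadjusted p under 0.05, 5 members were higher (*Fos*, *Fosb*, *Junb*, *Egr1* and *Btg2*), which is 50% of the members against 5.77% of all genes tested, and 0 members were lower against 2.86%. The members were chosen with earlier results of these data known, so these shares describe the group and do not test it. DESeq2 called *Fos* and *Egr1* at adjusted p of 0.00808 and 0.0141, and edgeR's exact test called the same 2 genes at 0.0285 and 0.0291. Over all alternatives the adjusted p ranged from 0.00808 to 0.569 for *Fos* and from 0.0141 to 0.544 for *Egr1*, and those tools called 150 and 140 genes in all. The median log2 fold change was 0.51 over the members and 0.012 over all genes tested, and the members' median was 0.33 without mutant 3.

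**Figure D1:**
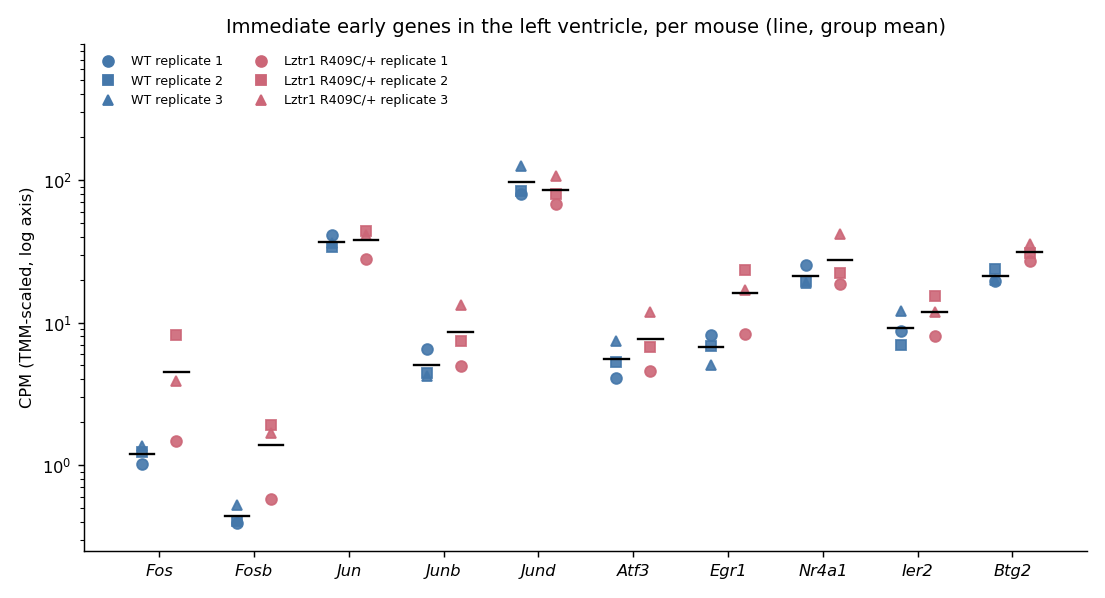
TMM-scaled CPM of each member in the 3 WT and 3 mutant mice, 1 point per mouse, with the group mean and SD; each panel has its own axis starting at 0. *Fos*, *Fosb*, *Egr1* and *Btg2* have every mutant mouse above every WT mouse, narrowly for *Egr1*, while the other 6 members overlap.

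*Fos* encodes the founding FOS protein, which needs a JUN partner to bind DNA. Its level (ENSMUSG00000021250.14, GRCm39 chromosome 12, 85520658 to 85524047, plus strand, 4 exons) was 1.01, 1.23 and 1.35 CPM in WT 1, 2 and 3 and 1.48, 8.18 and 3.88 CPM in mutant 1, 2 and 3. All 3 mutant mice were above all WT mice, but mutant 1 exceeded WT 3 by little and mutant 2 stood far above the rest. The means were 1.20 ± 0.171 CPM in WT and 4.51 ± 3.40 CPM in mutant LVs (SD, n = 3 each), a log2 fold change of 1.91 (SE 0.49, unadjusted p = 0.00233, adjusted p = 0.274, edgeR's quasi-likelihood test). Without mutant 2, the log2 fold change was 1.16. Behind these levels were 67, 79 and 128 reads counted in the WT libraries and 82, 585 and 281 in the mutant ones.

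*Fosb*, a FOS paralog also known for the truncated deltaFosB form, had the same order of mice. The gene (ENSMUSG00000003545.4, chromosome 7, 19036621 to 19043976, minus strand, 4 exons) measured 0.394, 0.404 and 0.528 CPM in WT 1, 2 and 3 and 0.5775, 1.90 and 1.68 CPM in mutant 1, 2 and 3. Mutant 2 and 3 were the high mice and mutant 1 was close to WT 3, without overlap between the groups. Its log2 fold change was 1.65 (SE 0.48, unadjusted p = 0.00489, adjusted p = 0.331, edgeR). *Fosb* was the least abundant member, with 26 to 50 counts per WT library and 32 to 136 per mutant library.

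Of the JUN genes, *Jun*, the principal DNA-binding partner of FOS, showed no difference between group means beyond the spread. The intronless gene (ENSMUSG00000052684.5, chromosome 4, 94937271 to 94940459, minus strand) measured 41.2, 33.8 and 36.1 CPM in WT 1, 2 and 3 and 27.7, 44.2 and 41.35 CPM in mutant 1, 2 and 3. The mutant mice held both the lowest and the 2 highest values. Between the groups the log2 fold change was 0.028 (SE 0.19, adjusted p = 0.979, edgeR), and its sign turned under library-size scaling and without some single mice.

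*Junb*, a weaker activator that can oppose JUN at its targets, was highest in mutant 3. Its level (ENSMUSG00000052837.8, chromosome 8, 85701113 to 85705359, minus strand) was 6.48, 4.41 and 4.20 CPM in WT 1, 2 and 3 and 4.98, 7.41 and 13.4 CPM in mutant 1, 2 and 3. Mutant 1 lay within the WT range and the other two mutant mice lay above it. The log2 fold change was 0.78 (SE 0.32, unadjusted p = 0.0335, adjusted p = 0.548, edgeR) and was 0.30 without mutant 3 (unadjusted p = 0.299, edgeR). *Prdx2*, on the opposite strand and with 11065 to 21034 counts per library, shares 173 exonic bases with the *Junb* gene but 0 with its canonical transcript, while *Gm65321*, also antisense, shares 77 bases with that transcript.

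*Jund*, the JUN paralog known for constitutive expression, was the one member with a lower mutant mean. The gene (ENSMUSG00000071076.9, chromosome 8, 71151599 to 71153265, plus strand, intronless) measured 79.4, 83.95 and 124.9 CPM in WT 1, 2 and 3 and 67.5, 79.7 and 106.1 CPM in mutant 1, 2 and 3. The ranges overlapped and the highest mouse was WT 3. The log2 fold change was -0.19 (SE 0.22, adjusted p = 0.85, edgeR), and it was 0.047 without WT 3. Annotated antisense transcripts share 528 bases with the canonical *Jun* transcript (*Junos*, 10 to 39 counts per library) and 877 bases with that of *Jund* (*Gm11175*, 0 to 12 counts). With that of *Btg2*, *Gm31974* (0 to 8 counts) shares 120 bases. No source says that counting used strand, so reads of such pairs cannot be told apart.

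*Egr1*, a zinc finger factor rapidly induced by growth factors, was higher in mutant LVs by a log2 fold change of 1.27 (SE 0.33, unadjusted p = 0.00245, adjusted p = 0.274, edgeR). Its level (ENSMUSG00000038418.8, chromosome 18, 34992876 to 34998049, plus strand) was 8.22, 6.90 and 5.07 CPM in WT 1, 2 and 3 and 8.25, 23.4 and 16.9 CPM in mutant 1, 2 and 3. Mutant 1 was level with WT 1, so the groups were separated by a margin of the third digit, and mutant 2 and 3 lay far above. The means were 6.73 ± 1.58 and 16.2 ± 7.61 CPM (SD, n = 3 each), and without mutant 2 the log2 fold change was 0.90.

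*Atf3*, which is induced by many kinds of cell stress, overlapped between the groups. The gene (ENSMUSG00000026628.14, chromosome 1, 190902493 to 190950241, minus strand) measured 4.06, 5.27 and 7.38 CPM in WT 1, 2 and 3 and 4.55, 6.71 and 11.8 CPM in mutant 1, 2 and 3. Only mutant 3 lay above the WT range. The log2 fold change was 0.47 (SE 0.33, unadjusted p = 0.181, adjusted p = 0.739, edgeR) and was 0.016 without mutant 3. It was 0.722 without mutant 1 (unadjusted p = 0.0408, adjusted p = 0.636, edgeR) and 0.724 without WT 3 (unadjusted p = 0.0693, edgeR).

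*Nr4a1*, also called Nur77, behaved similarly in that its mutant mean rested on mutant 3. Its level (ENSMUSG00000023034.8, chromosome 15, 101151980 to 101172681, plus strand, 7 exons) was 25.3, 19.4 and 18.9 CPM in WT 1, 2 and 3 and 18.8, 22.3 and 41.7 CPM in mutant 1, 2 and 3. Mutant 1 was the lowest of the 6 mice and mutant 2 lay inside the WT range. The log2 fold change was 0.38 (SE 0.26, unadjusted p = 0.175, adjusted p = 0.732, edgeR) and was -0.046 without mutant 3.

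*Ier2* measured 8.70, 6.91 and 12.1 CPM in WT 1, 2 and 3 and 8.05, 15.4 and 11.9 CPM in mutant 1, 2 and 3 (ENSMUSG00000053560.6, chromosome 8, 85387960 to 85389483, minus strand, intronless). Only mutant 2 lay above the WT range. Its log2 fold change was 0.35 (SE 0.26, unadjusted p = 0.203, adjusted p = 0.754, edgeR), and it was 0.10 without mutant 2 and 0.59 (unadjusted p = 0.0499) without WT 3. *Ier2* and *Junb* lie 312 kb apart, and of the 16 tested genes between them 10 had a higher fitted level in mutant LVs and 0 had an unadjusted p under 0.05.

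*Btg2*, a p53 target that recruits mRNA deadenylation, had the smallest fitted spread of the members. The gene (ENSMUSG00000020423.7, chromosome 1, 134002908 to 134015033, minus strand) measured 19.6, 23.9 and 19.9 CPM in WT 1, 2 and 3 and 27.1, 30.8 and 35.7 CPM in mutant 1, 2 and 3. Every mutant mouse, mutant 1 included, was above every WT mouse, a separation that was lost under scaling by library size alone. The means were 21.1 ± 2.40 and 31.2 ± 4.30 CPM (SD, n = 3 each), a log2 fold change of 0.56 (SE 0.17, unadjusted p = 0.00527, adjusted p = 0.34, edgeR). Under scaling by library size alone it was 0.44 (unadjusted p = 0.18, adjusted p = 0.976, edgeR). Its biological coefficient of variation, the fitted spread between mice, was 16%, against 40.8% for *Fos* and 40.5% for *Fosb* and a median of 21.5% over all genes tested.

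**Figure D2:**
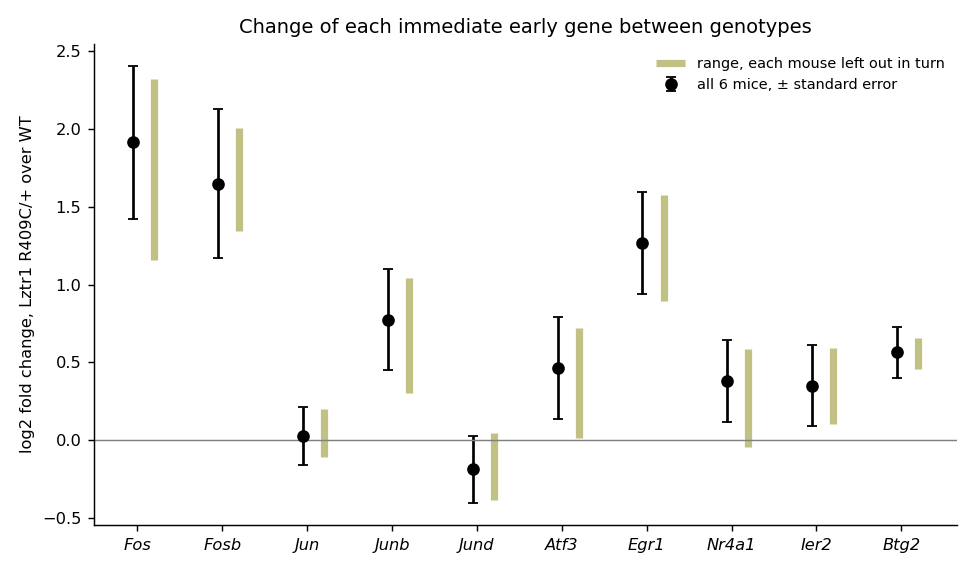
Log2 fold change of each member in mutant against WT LVs with its 95% confidence interval from edgeR's fit. The intervals of *Fos*, *Fosb*, *Egr1*, *Junb* and *Btg2* lie above 0 before adjustment, and those of the other 5 members cross it.

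In 4 members (*Fos*, *Fosb*, *Egr1* and *Btg2*) every mutant mouse was above every WT mouse, against 8.3% of all genes tested, and in 0 members every mutant mouse was below, against 7.23%. These shares also describe the group without testing it, since the members were chosen with earlier results known. Under scaling by library size alone, 0 members were higher without overlap (3.62% of all genes), and the log2 fold changes of *Fos* and *Egr1* were then 1.78 and 1.21. The exact permutation test of 3 against 3 mice cannot give a p below 0.1.

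For most members the mutant mice were further apart than the WT mice. The coefficient of variation of CPM was larger in mutant than in WT LVs for 9 of 10 members, *Jund* being the exception, and for 54.6% of all genes tested. It was 75.2% in mutant against 14.3% in WT for *Fos*. Mutant 2 was the highest of the 6 mice for 5 members (*Fos*, *Fosb*, *Jun*, *Egr1* and *Ier2*), mutant 3 for 4 (*Junb*, *Atf3*, *Nr4a1* and *Btg2*) and WT 3 for *Jund*. Mutant 1 was the highest for 0 members and the lowest for 3. The mean of the centred log2 CPM over the members was -0.26, -0.34 and -0.20 in WT 1, 2 and 3 and -0.30, 0.50 and 0.60 in mutant 1, 2 and 3, so that mutant 1 lay among the WT mice. Mutant 1 was also the library with the highest mitochondrial share and the lowest sum of all 8 cardiomyocyte markers, and the part of these in its values was not tested.

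**Figure D3:**
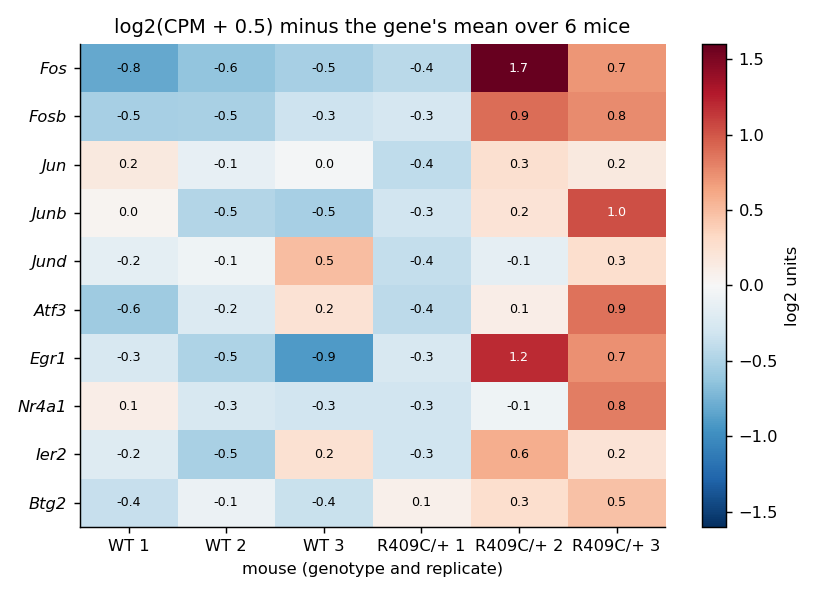
Log2 CPM of each member in each mouse relative to that member's mean over the 6 mice (colour and printed value). Mutant 2 and 3 are above the mean for most members, and mutant 1 is below it for every member except *Btg2*.

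Per kilobase of canonical transcript, *Jund* was the most abundant member in WT LVs at 57.6 ± 15.1 CPM per kb (SD, n = 3), followed by *Jun* at 11.6 ± 1.18. *Nr4a1* at 8.32 ± 1.39, *Btg2* at 7.70 ± 0.874 and *Ier2* at 6.06 ± 1.72 CPM per kb came next, and each overlapped its neighbour in that order. *Atf3* at 2.81 ± 0.848 and *Junb* at 2.78 ± 0.695 CPM per kb could not be separated by their spread. *Egr1* at 1.50 ± 0.352, *Fos* at 0.566 ± 0.0807 and *Fosb* at 0.117 ± 0.0198 CPM per kb were the least abundant and did not overlap. The 3 members with the largest log2 fold changes were therefore those with the lowest WT levels per kb. In mutant LVs *Fos* measured 2.13 ± 1.61 and *Egr1* 3.60 ± 1.69 CPM per kb, both still under *Jund* at 50.6 ± 11.8.

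A ratio of counts within one library does not depend on the scaling between libraries, so each member was set against *Jund*. Per 1000 *Jund* counts, *Fos* had 12.8, 14.6 and 10.8 counts in WT 1, 2 and 3 and 21.9, 102.7 and 36.5 in mutant 1, 2 and 3. *Egr1* had 103.5, 82.2 and 40.55 in WT and 122.2, 293.8 and 158.8 in mutant LVs on the same scale. *Btg2* had 247.5, 284.6 and 158.8 in WT and 402.2, 386.9 and 336.5 in mutant LVs. In all 3, mutant 1 lay above the WT mice by a wider margin than in CPM, and mutant 1 also had the lowest *Jund* level of the 6 mice.

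In 6 of 9 ratios (*Fos*, *Fosb*, *Egr1*, *Ier2*, *Atf3* and *Btg2*) the groups did not overlap, each with p = 0.1 by the two-sided exact permutation test, the smallest it can give (adjusted p = 0.15 over the 9 ratios). Of the 17211 genes tested other than *Jund*, 8.41% had a higher ratio to *Jund* in mutant LVs without overlap and 0.715% a lower one, against 0 members lower, and the median log2 ratio of all these genes was higher by 0.19. *Ier2* and *Atf3* overlapped in CPM and separated only as ratios. The log2 ratio was higher in mutant LVs by 1.78 for *Fos*, 1.66 for *Fosb*, 1.35 for *Egr1*, 0.74 for *Btg2*, 0.58 for *Atf3* and 0.52 for *Ier2*. *Junb* (0.86, exact p = 0.2), *Nr4a1* (0.49, exact p = 0.3) and *Jun* (0.19, exact p = 0.5) overlapped. Without mutant 2, the difference was 1.16 for *Fos*, 0.27 for *Ier2* and 0.029 for *Jun*. Without WT 3, it was 0.54 for *Junb*, 0.20 for *Nr4a1* and -0.036 for *Jun*. Without WT 1 it was 0.74 for *Nr4a1* and 0.39 for *Jun*, and without mutant 3 it was 0.32 and 0.28. The 9 ratios share *Jund*, whose own mutant mean was lower, and are not independent of each other.

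**Figure D4:**
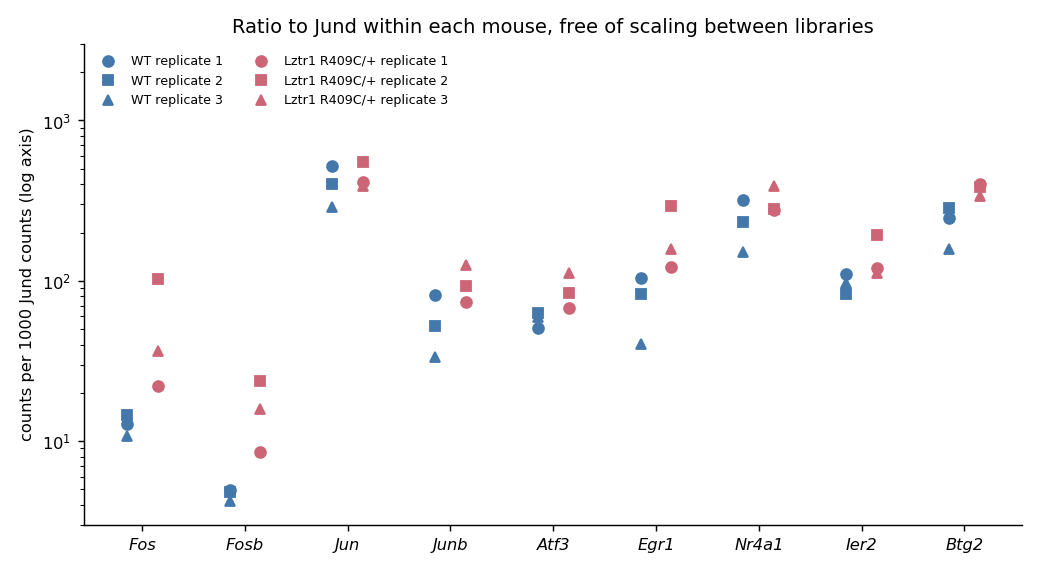
Counts of each other member per 1000 *Jund* counts in each mouse, on a log axis, 1 point per mouse by group. The groups do not overlap for *Fos*, *Fosb*, *Egr1*, *Ier2*, *Atf3* and *Btg2*, against 8.41% of all genes tested without overlap and higher, and mutant 2 is highest for *Fos* at 102.7.

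Family relatives of the members were examined as a list of 21 genes, of which 19 were tested. Their median log2 fold change was 0.27, with 14 higher and 5 lower fitted levels, and 1 gene, *Egr3*, was higher at an unadjusted p under 0.05 (5.26% of the list, near the share of all genes). *Egr3*, an EGR1 paralog, measured 0.893, 1.44 and 1.32 CPM in WT 1, 2 and 3 and 1.37, 2.18 and 2.75 CPM in mutant 1, 2 and 3, a log2 fold change of 0.79 (SE 0.35, unadjusted p = 0.0442, adjusted p = 0.568, edgeR). Mutant 1 lay within the WT range and mutant 2 and 3 above it, the order also seen for *Junb*. *Batf*, an AP-1 relative, was higher without overlap at 0.171 to 0.232 CPM in WT and 0.343 to 0.5315 CPM in mutant LVs (log2 fold change 1.15, unadjusted p = 0.0744, adjusted p = 0.618, edgeR). That is 1 of the 19 tested relatives, against 8.3% of all genes tested. *Egr4* had 0 counts in all 6 libraries, where 3 counts correspond to between 0.0317 and 0.0541 CPM.

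Of 36 other immediate early genes, among them *Myc*, *Dusp1*, *Klf4* and *Ccn1*, 25 had higher and 11 lower fitted levels, with a median log2 fold change of 0.10 and 0 genes higher at an unadjusted p under 0.05. *Mcl1*, an antiapoptotic BCL2 relative, was lower, at 215.5, 195.0 and 286.8 CPM in WT 1, 2 and 3 and 177.5, 174.2 and 174.8 CPM in mutant 1, 2 and 3 (log2 fold change -0.41, SE 0.17, unadjusted p = 0.0376, adjusted p = 0.554, edgeR). *Mcl1* was the 1 gene of 36 that was lower at an unadjusted p under 0.05, against 2.86% of all genes tested. The groups did not overlap for *Mcl1*, also 1 of 36, against 7.23% of all genes tested. Of 15 factors and kinases that act on immediate early promoters, such as *Srf*, *Elk1*, *Creb1* and the RSK and MSK kinase genes, 6 were higher and 9 lower, with a median log2 fold change of -0.12 and 0 genes at an unadjusted p under 0.05 in either direction. The MSK kinase gene *Rps6ka4* was higher without overlap (log2 fold change 0.31, unadjusted p = 0.0698, adjusted p = 0.61, edgeR), 1 of 15 against 8.3% of all genes tested.

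**Figure D5:**
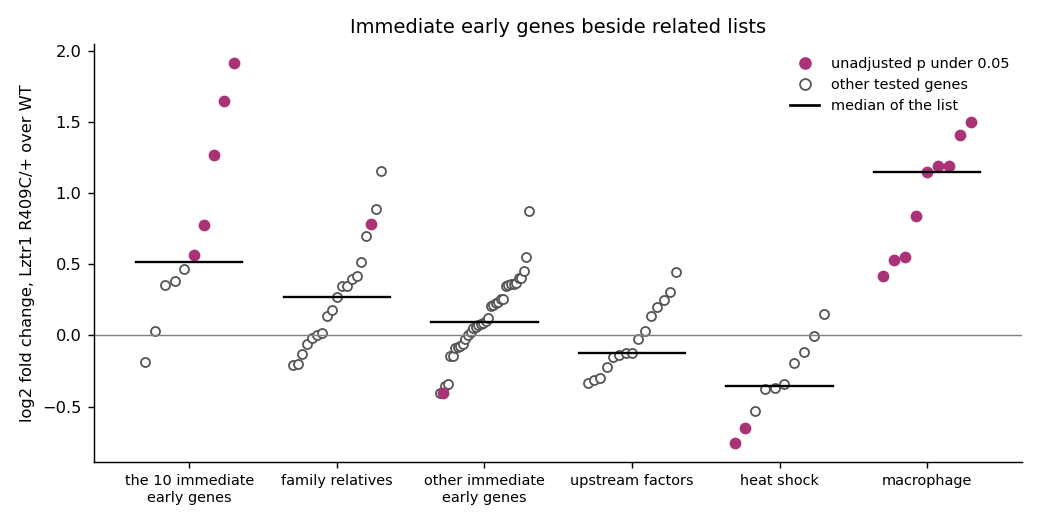
Log2 fold change of every tested gene in the 10 members, their relatives, the other immediate early genes, the upstream factors, the heat shock genes and the macrophage markers, 1 point per gene (filled at an unadjusted p under 0.05), with a line at the list's median. The members' median of 0.51 stands above those of the relatives (0.27), other immediate early genes (0.10) and upstream factors (-0.12), and the macrophage markers' median is 1.15.

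Markers of other cell types, and genes that respond to tissue handling, were also compared between the groups. All 9 of 9 macrophage markers were higher in mutant LVs without overlap, against 8.3% of all genes tested. At an adjusted p under 0.05, 2 of them passed (*C1qb* and *C1qc*, both 0.0241, edgeR), against 0.0407% of all genes. The macrophage markers summed to 212.2 to 239.4 CPM in WT and 355.5 to 464.3 CPM in mutant LVs. *Lyz2* made up much of that sum, and without it the markers summed to 122 to 125.7 CPM in WT and 212.5 to 231.5 CPM in mutant LVs. Lymphocyte markers summed to 0.633 to 1.15 CPM in WT and 2.07 to 2.60 CPM in mutant LVs, and neutrophil markers to 0.961 to 1.86 and 2.20 to 2.57 CPM. These are low levels, and 5 of 6 lymphocyte and 3 of 4 neutrophil markers passed the filter on low counts. Of the tested neutrophil markers, 2 had a higher and 1, *S100a9*, a lower fitted level. *S100a9* hardly differed (log2 fold change -0.0058) and was highest in WT 2, at 0.761 CPM. Fibroblast markers (1271 to 1612 against 1117 to 1658 CPM), endothelial markers (723.8 to 843.7 against 717.8 to 1009 CPM) and mural markers (664.8 to 788.3 against 624.2 to 764.6 CPM) overlapped in their sums. Within these lists, some single markers did not overlap. *Lum*, *Tcf21*, *Emcn* and *Fabp4* were higher (log2 fold changes of 0.61, 0.54, 0.40 and 0.52). *Tagln* and *Myh11*, markers of smooth muscle, were lower (-0.65 and -0.71). The adjusted p of these single markers ran from 0.305 to 0.565 by edgeR. They were 2 of 7 fibroblast and 2 of 7 endothelial markers, against 8.3% of all genes, and 2 of 7 mural markers, against 7.23%. Fitted levels were higher for 4 and lower for 3 fibroblast markers, 5 and 2 endothelial markers, and 3 and 4 mural markers. *Acta2*, also of the mural list, overlapped (-0.13, adjusted p = 0.889, edgeR).

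Heat shock genes, which also respond to tissue handling, had 1 higher and 9 lower fitted levels among 10, and summed to 1848 to 2189 CPM in WT and 1661 to 1698 CPM in mutant LVs. *Hsph1* (log2 fold change -0.75, unadjusted p = 0.00329, adjusted p = 0.286, edgeR) and *Hsp90aa1* (-0.65, unadjusted p = 0.0102, adjusted p = 0.436, edgeR) were the 2 at an unadjusted p under 0.05. Of all genes tested, 2.86% were lower at that threshold. With *Hspd1* (log2 fold change -0.37, unadjusted p = 0.0644, adjusted p = 0.599, edgeR), 3 of the 10 were lower without overlap, against 7.23% of all genes. Erythroid genes summed to 578.8 to 1479 CPM in WT and 1042 to 2625 CPM in mutant LVs. All 5 had higher fitted levels (median log2 fold change 0.97), but 0 were higher without overlap. At an unadjusted p under 0.05, 3 of the 5 were higher (60% against 5.77% of all genes, edgeR), with adjusted p of 0.372 or more. No marker of these lists was at 0 in every library, and the part of these cell types and of tissue handling in the members' values was not tested. In bulk tissue, a change in the share of a cell type and a change in RNA per cell cannot be told apart.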

How the data were processed

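The deposited table from mRNA-Seq of 6 libraries held raw whole-number counts for each gene. Per the labels, RNA came from perfused hearts, and reads passed through Trim Galore, HISAT2 and StringTie on GRCm39. How counts were taken from StringTie, the annotation release and versions are not given in the sources used here. A deposited table of the authors' own comparison holds log2 fold changes, log2 CPM and p-values, which were not used. It supplied the gene names of 9 members by identifier. *Fosb* was matched by identifier to GENCODE vM39, which also gave positions, transcripts and promoters on GRCm39.

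Genes were filtered with filterByExpr, scaled by TMM and tested two-sided with edgeR 4.0.16 (R 4.3.3, limma 3.58.1) by the robust quasi-likelihood F test, 3 against 3 libraries with no covariate. The Benjamini-Hochberg adjustment ran over 17212 genes with a threshold of 0.05. Ratios to *Jund* had 0.5 counts added. DESeq2 1.42.0, edgeR's exact test, other scalings and filters, a replicate block and leaving out each library were alternatives. The procedure was tested on simulated data. All members were named, with *Lztr1*, every gene of the relatives, other immediate early and upstream lists at an unadjusted p under 0.05, and the 5 genes most alike. Other genes named were chosen after their values were seen. The members and lists were chosen with earlier results of these data known.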

Additional observations from a re-analysis of the deposited data

How the results depend on the processing

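*Fos*, *Fosb* and *Egr1* were higher in mutant LVs under all 16 alternatives, with log2 fold changes of 1.16 to 2.43, 1.35 to 2.16 and 0.90 to 1.58. Members at an adjusted p under 0.05 numbered 1 with library-size scaling (*Fos*, adjusted p = 0.0201, edgeR, where 21 genes in all or 0.122% passed), 2 with DESeq2 and 2 with edgeR's exact test, against 0 in the reported fit and under the other alternatives. Library-size scaling moved the median log2 fold change of all genes to -0.14, left 0 members higher without overlap and 4 at an unadjusted p under 0.05 (all of the 5 but *Btg2*, 2.25% of all genes), turned *Jun* to -0.10 and left 0 relatives higher at an unadjusted p under 0.05. Relatives at that threshold numbered 2 with the exact test and 2 with at least 10 counts in every mouse. Other immediate early genes numbered 1 with upper-quartile scaling, 1 with DESeq2 and 1 with no filter, and upstream factors 1 with upper-quartile scaling. The cause was not tested.

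Leaving out 1 mouse at a time moved members higher at an unadjusted p under 0.05 from 4 to 7 (4.8% to 5.72% of all genes) and those without overlap from 3 (without WT 3, when *Egr1* overlapped) to 6 (without mutant 1), where 12.1% to 14.1% of all genes were higher without overlap. It moved relatives from 0 to 2, other immediate early genes from 0 to 3, upstream factors from 0 to 1, and the log2 fold changes of *Jun* from -0.11 to 0.20, *Jund* from -0.39 to 0.047 and *Nr4a1* from -0.046 to 0.59. Leaving out both WT 3 and mutant 1, the ends of the mitochondrial share, was chosen after seeing the data. It left 8 members higher without overlap (21.2% of all genes), 7 members at an unadjusted p under 0.05 (5.92% of all genes), 4 relatives and 7 other immediate early genes, and turned *Jund* to 0.19 and moved the members' median to 0.87. The rarest member, *Fosb*, had 26 to 50 counts per WT library.

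Same-numbered mice did not deviate together (correlations of -0.03, 0.06 and -0.10), and not every mouse correlated best with its own number. With 3 mice per group, these correlations cannot tell whether same-numbered mice shared a litter or a preparation, which the sources used here do not give. With the replicate block, 0 members passed, 4 members (all of the 5 but *Junb*, unadjusted p = 0.0885, edgeR) and 2 relatives were higher at an unadjusted p under 0.05 (5.25% of all genes), and calls over all genes went from 7 to 1.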

Other observations

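The 5 genes, other than members, whose log2 CPM was most like the members' mean over the 6 mice, among 13256 candidates, were *Ankrd13a* (Pearson r = 0.988), *Spry1* (0.987), *Gm47882* (0.987), *Ahcyl* (0.987) and *Sema3f* (0.976). *Spry1*, a Sprouty inhibitor of receptor tyrosine kinase signaling, measured 27.5, 27.5 and 27.7 CPM in WT 1, 2 and 3 and 28.1, 32.95 and 32.95 CPM in mutant 1, 2 and 3. Without mutant 2 and 3 its r was -0.02, so its likeness rests on those mice. It was then 0.848 for *Ankrd13a*, 0.699 for *Ahcyl*, 0.63 for *Gm47882* and 0.621 for *Sema3f*. These values describe 6 mice and were picked as the highest of many genes.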
